A study of Mus musculus with 20 samples.

Results

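The immune checkpoint genes were 10 genes of the 22090 in the count table, chosen by name. They comprised the ligands Cd274 (PD-L1), Pdcd1lg2 (PD-L2), Vtcn1 (B7-H4) and Lgals9 (galectin-9), the receptors Pdcd1 (PD-1), Ctla4, Lag3, Havcr2 (TIM-3) and Tigit, and the tryptophan-degrading enzyme Ido1. All 10 were in the table, in which 18160 genes were detected. The study followed skin from normal tissue to squamous cell carcinoma under ultraviolet radiation, and the question here was whether these genes differed between the stages. RNA-seq was run on bulk back skin of female Hairless SKH-1 mice, an outbred strain with almost no fur, given by the labels as aged 7 months. The methods give that age for the mice as purchased, before the weeks of irradiation, so the tissue sampled at the end came from older mice. There were 8 samples of normal skin (NS), 8 of actinic keratosis (AK, a precancerous lesion of sun-exposed skin) and 4 of cutaneous squamous cell carcinoma (cSCC). The mice formed 2 groups of 4, of which 1 was kept free of ultraviolet radiation and 1 was irradiated with a solar simulator that gave UVA and UVB. NS was taken from both groups, AK and cSCC from the irradiated mice, and the labels do not tell NS of irradiated mice from NS of the others or low from high grades of AK. By the methods, each of the 4 irradiated mice gave 1 NS, 2 AK and 1 cSCC sample, so the 8 AK, the 4 cSCC and 4 of the 8 NS samples came from the same 4 mice. The labels give no mouse for a sample, so the tests treat samples as independent, and n counts samples and not mice. P-values can be too small, in particular for AK with 2 samples a mouse. They can also be too large where the groups compared share mice, as AK and cSCC do.

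Checkpoint genes limit T cell responses. PD-L1 and PD-L2 on tumour, stromal or myeloid cells engage PD-1 on activated T cells, CTLA-4 competes with CD28 for CD80 and CD86, and LAG-3, TIM-3 and TIGIT are further inhibitory receptors on activated or exhausted lymphocytes. Interferon gamma, through JAK2 and IRF1, is a well-known inducer of Cd274 and Ido1, and cSCC is among the tumours treated with antibodies to PD-1.

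Expression is given as CPM, the counts of a gene per 1000000 counts of the library after TMM scaling, and read depth set the limits. Total counts were 1624325 to 6295575 in NS, 867219 to 14055206 in AK and 775750 to 7095102 in cSCC, so that 3 counts, used as the smallest level told from 0, corresponded to 0.478 to 1.69 CPM in NS, 0.225 to 3.78 CPM in AK and 0.496 to 3.41 CPM in cSCC. These floors cover counting error only. A few libraries stood apart. Haemoglobin genes took 46.8% of the counts of cSCC replicate 18 and 14.3% of AK replicate 14, against at most 6.02% in the other libraries. Genes of lung (Sftpc and others) summed to 35923 CPM in cSCC replicate 20, against at most 51.7 CPM in every NS and AK library, and genes of heart (Actc1, Myh6 and others) to 55249 CPM in cSCC replicate 21, against at most 73.2 CPM in NS and AK. The keratin and envelope genes that mark keratinocytes summed to 5442 CPM in cSCC replicate 20 and 3828 CPM in cSCC replicate 21, below the lowest NS library at 9645 CPM, and to 17433 and 18893 CPM in cSCC replicates 19 and 18. Calls were therefore also read without cSCC replicates 20 and 21, a choice made for the gene lists after seeing the data.

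Cd274 and Pdcd1lg2 lie next to each other on chromosome 19 of the mouse genome (build GRCm38, GENCODE annotation) at chr19:29367455-29388095 and chr19:29410919-29471161, both on the forward strand. Lgals9 lies at chr11:78962974-78984946 on the reverse strand. Each of these gene bodies spans exons, introns and both untranslated ends, and counts were summed over a gene, so no single exon can be named. Annotated antisense transcripts overlap Cd274 and Pdcd1lg2, a pseudogene overlaps Ctla4, and no source states that counting used strand, so some of those counts may come from the overlapping transcripts. The sequences just upstream of Cd274 and Lgals9 are shown because these were the members called higher in cSCC. They are from RefSeq (GRCm38.p6), 5′ to 3′ on each gene's own strand, with a match to a paired interferon regulatory factor motif (GAAANNGAAA on either strand) in capitals.
Cd274, forward strand, chr19:29367188-29367437: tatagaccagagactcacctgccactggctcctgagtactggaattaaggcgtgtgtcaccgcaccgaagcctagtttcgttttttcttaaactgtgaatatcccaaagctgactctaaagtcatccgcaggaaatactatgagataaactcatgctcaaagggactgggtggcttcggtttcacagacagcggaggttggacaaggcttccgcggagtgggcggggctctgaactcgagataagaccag
Lgals9, reverse strand, chr11:78984947-78985174: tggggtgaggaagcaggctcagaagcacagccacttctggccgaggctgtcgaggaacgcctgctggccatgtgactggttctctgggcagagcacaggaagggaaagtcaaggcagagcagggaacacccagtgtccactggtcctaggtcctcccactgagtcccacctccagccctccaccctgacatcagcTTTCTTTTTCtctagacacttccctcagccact
Upstream sequences of 8 of the 10 members were matched. In the 250 bases before the RefSeq start, the paired motif was found in 1 of the 8, Lgals9, and in 2.98% of 32851 promoters. In Lgals9 it begins 55 bases upstream of the RefSeq start. The 22 bases next to that start lie inside the annotated gene body and are left out of the Lgals9 sequence shown. The gamma interferon activated site (TTCNNNGAA, its own reverse complement) was found in 0 of the 8 and in 7.02% of all promoters. These are matches of letters and not sites of binding.

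Among the ligands, Cd274 rose in cSCC over NS 3.40-fold and Lgals9 2.14-fold. Both are checkpoint ligands, Cd274 for PD-1 and Lgals9, a sugar-binding protein, for TIM-3. Lgals9 also rose in cSCC over AK, 1.86-fold. No member was called in AK vs. NS, and no receptor with enough counts for the gene filter was called in any comparison. A gene was called when its Benjamini-Hochberg adjusted p in edgeR's quasi-likelihood test was below 0.05 and its fold change was above 1.5 or below 0.67.

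Cd274 in NS was lowest at 5.48 CPM, had a median of 8.72 CPM and reached 22 CPM in replicate 6. In AK it ran from 10.1 CPM through a median of 18.4 CPM to 35.3 CPM in replicate 13. In cSCC it was 41.7, 28.6, 53.5 and 18.9 CPM in replicates 18, 19, 20 and 21. All 8 AK libraries lay above the NS median but only 2 above the highest NS library. Of the 4 cSCC libraries 3 lay above the highest NS library, all 4 above the AK median and 2 above the highest AK library. The means were 10.9 ± 5.43 (SD, n = 8), 19.9 ± 7.85 (n = 8) and 35.6 ± 15.1 (n = 4) CPM. Cd274 was called in cSCC vs. NS with a log2 fold change of 1.77 (SE 0.39, adjusted p = 0.00836). It was not called in AK vs. NS (0.90, SE 0.29, adjusted p = 0.0739) or in cSCC vs. AK (0.91, SE 0.34, adjusted p = 0.0651), so the neighbours in the order NS, AK, cSCC did not differ past the threshold while its ends did. DESeq2 called it in AK vs. NS (adjusted p = 0.0334) and in cSCC vs. AK (adjusted p = 0.0409), and limma voom in AK vs. NS (adjusted p = 0.0245). The call in AK vs. NS appeared without NS replicate 6 (1.10, adjusted p = 0.0365) and that in cSCC vs. AK without AK replicate 13 (1.09, adjusted p = 0.0352), the highest library of each group.

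**Figure D1:**
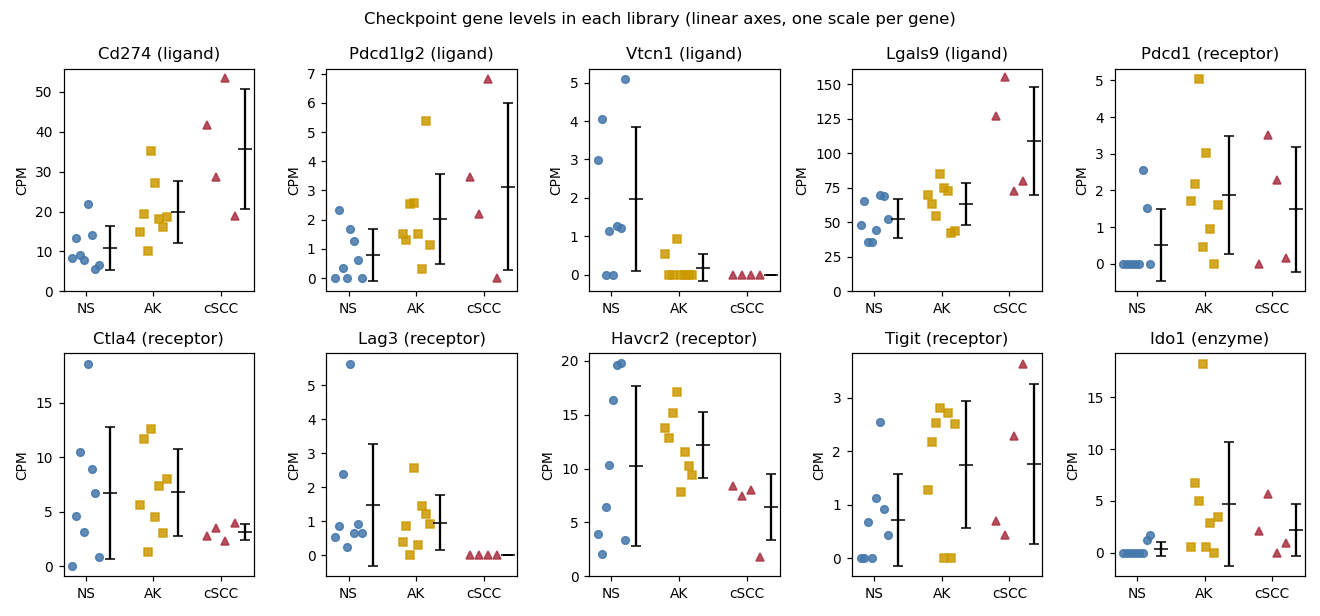
TMM-scaled CPM of each checkpoint gene (linear vertical axes that differ between genes) in every NS, AK and cSCC library, 1 point per library, with the mean and 1 SD beside each group. Lgals9 in the 4 cSCC libraries lies above every NS library, Cd274 climbs from 10.9 CPM in NS to 35.6 CPM in cSCC with overlapping groups, and Lag3 and Vtcn1 are at 0 in all cSCC libraries.

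Cd274 stayed called in cSCC vs. NS under every alternative and with any 1 library left out, with log2 fold changes between 1.47 and 1.98. The lung-rich cSCC replicate 20 held the highest level and the heart-rich cSCC replicate 21 the lowest. Without both of them the log2 fold change was 1.73 (adjusted p = 0.0261), and without cSCC replicate 18 it was 1.65 (adjusted p = 0.0148).

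Lgals9 was the most abundant member per length, at 31.9 CPM per kilobase of exon over all 20 samples, ahead of Cd274 at 5.37, Havcr2 at 3.77 and Ctla4 at 2.57, with the remaining 6 between 0.329 and 1.45. Its level was 35.6 to 70.2 CPM in NS (median 50.5) and 42.0 to 85.3 CPM in AK (median 66.7). In cSCC it was 127, 156, 72.8 and 80.1 CPM in replicates 18, 19, 20 and 21. Every cSCC library exceeded every NS library, while the AK libraries overlapped both groups, and cSCC replicates 20 and 21 lay below the highest AK library. The means were 52.7 ± 14.1 (n = 8), 63.3 ± 15.4 (n = 8) and 108.9 ± 39.3 CPM (n = 4). Lgals9 was called in cSCC vs. NS (log2 fold change 1.10, SE 0.27, adjusted p = 0.0136) and in cSCC vs. AK (0.89, SE 0.25, adjusted p = 0.0209), and not in AK vs. NS (0.25, SE 0.18, adjusted p = 0.412). Of all genes kept by the filter, 2.7% had every cSCC library above every NS library.

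The Lgals9 calls were less stable than that of Cd274. In cSCC vs. NS the call was lost without cSCC replicate 19 (0.87, adjusted p = 0.0514) and when libraries were scaled by total counts alone (0.81, adjusted p = 0.0835). With the haemoglobin genes removed, scaling by total counts kept it (1.02, adjusted p = 0.0223). Without the lung-rich and heart-rich libraries the log2 fold change was 1.45 (adjusted p = 0.00809). In cSCC vs. AK the call was lost without AK replicate 12 (0.76, adjusted p = 0.0660), AK replicate 14 (0.82, adjusted p = 0.0503), cSCC replicate 18 (0.74, adjusted p = 0.0605) or cSCC replicate 19 (0.67, adjusted p = 0.0813), and it remained without cSCC replicates 20 and 21 together (1.23, adjusted p = 0.00910). It was also lost under scaling by total counts (0.65, adjusted p = 0.146), with limma voom (0.88, adjusted p = 0.0738) and without the gene filter (0.71, adjusted p = 0.0809).

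**Figure D2:**
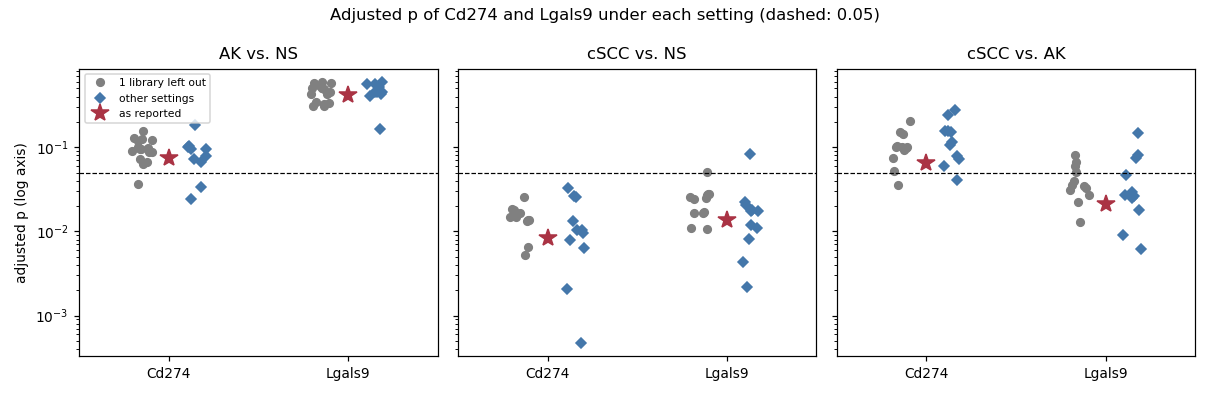
Adjusted p (log vertical axis) of Cd274 and Lgals9 in the 3 comparisons, as reported (star), with 1 library left out (grey points) and under the other settings (blue diamonds); the dashed line is the threshold of 0.05. In cSCC vs. NS all values of Cd274 lie below the line and 2 of Lgals9 above it, and in AK vs. NS all values of Lgals9 lie above it.

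Markers of other cell types were counted beside these 2 ligands in cSCC vs. NS, where 11.7% of all genes were called higher. Of 7 endothelial markers 6 were called higher, and their summed level was 110 to 585 CPM in cSCC against 29.9 to 105.5 CPM in NS, so the ranges did not overlap. Without cSCC replicates 20 and 21 none of the 6 kept its call (adjusted p from 0.0518 to 0.422), and Cd274 and Lgals9 kept theirs. With fewer cSCC libraries a lost call need not mean a lost difference. The 6 log2 fold changes were then 0.78 to 2.51. The endothelial sums of cSCC replicates 18 and 19, 115 and 110 CPM, still lay above every NS library. Of 8 neutrophil markers, 3 were called higher (Csf3r, Cxcr2 and Mmp9), 2 of them also without those libraries, with overlapping sums of 2337 to 15107 CPM in cSCC and 90.5 to 5808 CPM in NS. Of 10 macrophage markers, 2 were called higher (C1qa and Fcgr1), and the cSCC sums of 758 to 6531 CPM reached both below and above the NS sums of 1446 to 5006 CPM. None of the markers of these 3 lists was at 0 throughout a group. All 3 cell types can express Cd274 or Lgals9, and beyond these values their part in the differences was not tested. In bulk tissue, a change in the number of cells of a type and a change in RNA per cell cannot be told apart.

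Pdcd1lg2, the second ligand of PD-1, was near the detection limit and did not pass the gene filter in any comparison. It had 22 counts in the 8 NS libraries together, 60 in AK and 16 in cSCC, with means of 0.779 ± 0.885, 2.03 ± 1.54 and 3.12 ± 2.85 CPM. Fitted without the filter, its log2 fold change was 1.94 (SE 1.24, adjusted p = 0.304) in cSCC vs. NS, and a difference was not detectable at this depth. Its highest cSCC value, 6.83 CPM in replicate 20, rests on 6 counts.

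Vtcn1, a B7-family ligand found on epithelial cells, was highest in NS. It was detected in 6 of 8 NS libraries (72 counts, up to 5.11 CPM in replicate 9), in 2 of 8 AK libraries (11 counts) and in 0 of 4 cSCC libraries. Set against 3 counts over the cSCC group, pooled Vtcn1 was at least 7.84-fold lower in cSCC than in NS, and at least 3.39-fold lower without the heart-rich replicate 21, which holds most of the cSCC depth. Without cSCC replicates 20 and 21 together this bound was 2.74-fold. Against AK the bound was only 1.01-fold, and 0.436-fold without replicate 21, so cSCC could not be told from AK. NS replicates 4 and 6 were also at 0, so the groups overlapped. Vtcn1 did not pass the gene filter. Without the filter it was not called in AK vs. NS (log2 fold change −2.99, SE 0.95, adjusted p = 0.0899) or in cSCC vs. NS (adjusted p = 0.0503). Nor was it called in cSCC vs. AK (adjusted p = 0.242). DESeq2 called it lower in AK vs. NS and cSCC vs. NS (adjusted p = 0.0422 and 0.0297). It was also called in cSCC vs. NS under scaling by total counts (adjusted p = 0.0436) and with all 20 samples in 1 fit (adjusted p = 0.0315), and edgeR called it lower there without NS replicate 4 (adjusted p = 0.0408) or NS replicate 6 (adjusted p = 0.0447), the 2 NS libraries without a count.

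Ctla4 and Havcr2 were the only receptors with enough counts for the filtered tests. Ctla4 in NS ranged from 0 to 18.6 CPM (median 5.67), and in AK from 1.26 to 12.6 CPM (median 6.48). The 4 cSCC libraries held 2.78, 3.52, 2.28 and 3.97 CPM, below both medians but inside both ranges. Its log2 fold change was 0.12 (SE 0.61, adjusted p = 0.923) in AK vs. NS, −0.95 (SE 0.93, adjusted p = 0.502) in cSCC vs. NS and −0.96 (SE 0.55, adjusted p = 0.217) in cSCC vs. AK.

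Havcr2, which is carried by myeloid cells as well as by T cells, ranged from 2.03 to 19.8 CPM in NS (median 8.40) and from 7.84 to 17.1 CPM in AK (median 12.1). In cSCC it was 8.34, 7.47, 7.96 and 1.82 CPM, with 2 of the 4 libraries below the lowest AK library. The log2 fold change was 0.25 (SE 0.40, adjusted p = 0.738) in AK vs. NS, −0.67 (SE 0.68, adjusted p = 0.516) in cSCC vs. NS and −0.89 (SE 0.43, adjusted p = 0.144) in cSCC vs. AK. None was called.

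Lag3, an inhibitory receptor that binds MHC class II, was at 0 in all 4 cSCC libraries and was at 0 in only 1 NS or AK library. It had 34 counts in NS, where 7 of 8 libraries held 3 or more, and 36 counts in AK. The highest levels were 5.63 CPM in NS replicate 6 and 2.57 CPM in AK replicate 13, and the lowest NS library held 1 count (0.225 CPM), which is below the level of 3 counts in every cSCC library. Set against 3 counts over the cSCC group, Lag3 was at least 3.70-fold lower in cSCC than in NS and at least 3.30-fold lower than in AK. Without cSCC replicate 21 these bounds were 1.60-fold and 1.43-fold, and without cSCC replicates 20 and 21 together 1.29-fold and 1.15-fold. It did not pass the filter. The fit without the filter called it lower in cSCC vs. NS (adjusted p = 0.0446), where 5.13% of all genes were called lower, and in cSCC vs. AK (adjusted p = 0.0389), where 6.57% were. The call in cSCC vs. NS was lost with any 1 of the 12 libraries left out (adjusted p from 0.0502 to 0.126), and that in cSCC vs. AK with 9 of the 12 left out in turn. limma voom called it in neither (adjusted p = 0.169 and 0.180), DESeq2 did not call it in cSCC vs. AK (adjusted p = 0.0869), and without cSCC replicates 20 and 21 together both calls were lost (adjusted p = 0.187 and 0.203). Of all genes with a count, 4.06% had every cSCC library below every NS library, as Lag3 did.

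Pdcd1 and Tigit were seen in few counts. Pdcd1 was at 0 in 6 of 8 NS libraries and had 21, 62 and 11 counts in NS, AK and cSCC, and 8 of the 11 in cSCC came from replicate 19. Tigit had 25, 69 and 26 counts, and 22 of the 26 in cSCC came from replicate 21, which carried the heart genes. Means were 0.509, 1.87 and 1.49 CPM for Pdcd1 and 0.712, 1.75 and 1.76 CPM for Tigit. In AK vs. NS the unfiltered log2 fold changes were 1.59 (SE 0.96, adjusted p = 0.344) for Pdcd1 and 1.24 (SE 0.86, adjusted p = 0.413) for Tigit, and neither was called by edgeR in any comparison. limma voom called Pdcd1 higher in AK vs. NS (2.42, adjusted p = 0.0407). In cSCC vs. AK the sign of both changed with the setting.

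Ido1, which turns tryptophan into kynurenine and is induced by interferon gamma, was at 0 in 6 of 8 NS libraries, where the other 2 held 1.22 and 1.70 CPM. It was detected in 7 of 8 AK libraries, with a median of 3.15 CPM and the highest value, 18.2 CPM, in replicate 13. In cSCC it was 2.08, 5.71, 0 and 0.992 CPM. Of the 8 AK libraries, 5 exceeded the highest NS library. Without the filter its log2 fold change in AK vs. NS was 3.55 (SE 0.99, adjusted p = 0.0580), not called by edgeR and called by DESeq2 (adjusted p = 0.0123) and by limma voom (adjusted p = 0.0158). Leaving out NS replicate 8 (adjusted p = 0.0386), NS replicate 9 (adjusted p = 0.0266), the only NS libraries with a count, or AK replicate 10 (adjusted p = 0.0374) also brought the call. AK replicate 13 also held the highest AK level of Cd274, Lgals9, Ctla4, Lag3, Havcr2 and Tigit. In cSCC vs. AK, Ido1 passed the filter and was not called (−0.92, SE 1.06, adjusted p = 0.558).

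In the filtered fits, 4 members could be tested in AK vs. NS, of which 0 were called, against 4.64% of all genes tested (1 member, Cd274, and 24.6% of all genes had an unadjusted p below 0.05). In cSCC vs. NS, 2 of 4 members were called, both higher, against 19.3% of all genes, with 11.7% called higher. In cSCC vs. AK, 1 of 5 was called, higher, against 24.4% of all genes, with 16% called higher, so the share of members there was close to that of all genes. The median log2 fold change of the members tested was 0.25, 0.21 and −0.89 in AK vs. NS and in cSCC against NS and against AK, beside −0.04, 0.14 and 0.17 over all genes. Ido1 (−0.92) passed the filter in cSCC vs. AK only, so these medians are over unlike sets of members. In cSCC vs. AK, Cd274 and Lgals9 had 0.91 and 0.89, and Ctla4 and Havcr2 had −0.96 and −0.89. Members that failed the filter are not in these counts. Scaling by total counts alone changed the balance of calls over all genes, from 264 higher and 278 lower to 176 and 481 in AK vs. NS, from 1414 and 926 to 625 and 1332 in cSCC vs. NS, and from 1931 and 1004 to 1021 and 1356 in cSCC vs. AK. The median over all genes then fell to −0.17 in cSCC vs. NS and −0.09 in cSCC vs. AK, and without haemoglobin genes the same scaling gave 0.04 and 0.08.

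**Figure D3:**
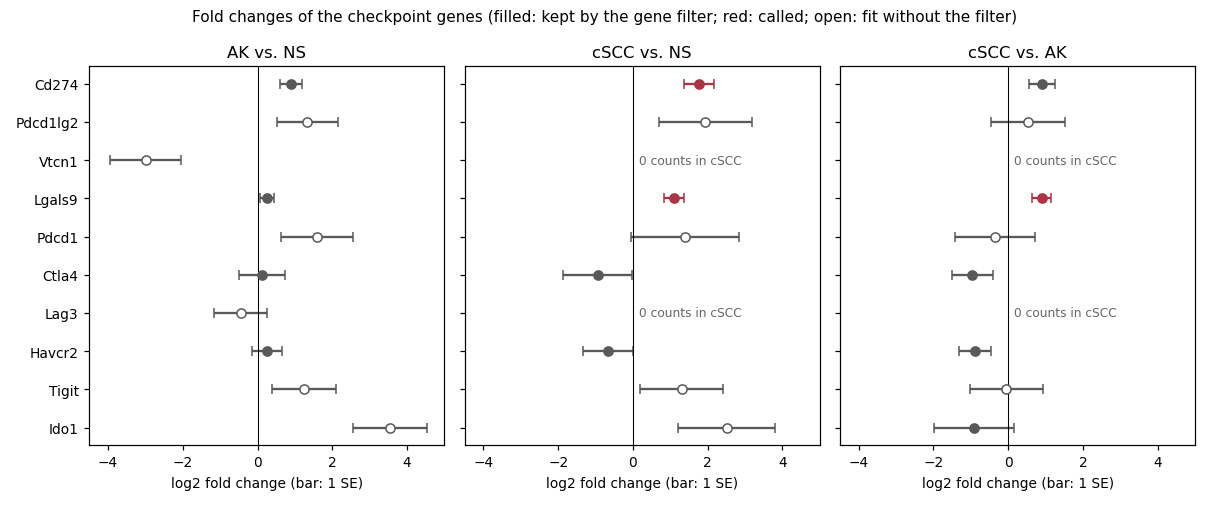
log2 fold change (horizontal axis, bar 1 SE) of each checkpoint gene in the 3 comparisons, 1 to a panel, with filled points for genes kept by the filter, red for called genes and open points for the fit without the filter. Cd274 at 1.77 and Lgals9 at 1.10 are called in cSCC vs. NS, and Vtcn1 and Lag3 have no point where cSCC held 0 counts.

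The receptors were read beside T cell markers, because T cells carry most of them. The summed level of 10 T cell markers was 66.2 to 223 CPM in NS, 33.0 to 190 CPM in AK and 9.76 to 51.4 CPM in cSCC, where every library lay below every NS library. Among single genes kept by the filter, 5.73% lay wholly lower in cSCC than in NS. None of the 10 T cell markers was at 0 throughout a group. Of 7 tested, 2 were called lower in cSCC vs. NS, Cd3g (log2 fold change −3.60, SE 0.70, adjusted p = 0.00466) and Cd247 (−3.91, SE 0.73, adjusted p = 0.00387), both chains of the T cell receptor complex, and both were called without cSCC replicates 20 and 21 as well. In the fit of all cSCC and NS libraries, 926 of 12097 genes were called lower. The summed level of 6 Treg markers was 44.1 to 150 CPM in NS, 26.5 to 105 CPM in AK and 9.43 to 22.8 CPM in cSCC. Of 2 tested in cSCC vs. NS, 1 was called lower (Ikzf2). Foxp3 was near 0 in every group, NS included, and Ccr4 was at 0 in cSCC. The 4 CD3 chains held 3075 counts in NS, 2413 in AK and 95 in cSCC, as raw sums over groups of unlike size and depth. Scaled for depth, their summed level had medians of 91.1 CPM in NS, 57.3 CPM in AK and 15.2 CPM in cSCC.

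Set against those chains, 4 of the 5 receptors had more pooled counts per 100 CD3 counts in cSCC than in NS. Their mean CPM in cSCC was below that in NS for Ctla4 and Havcr2 and above it for Pdcd1 and Tigit. Ctla4 had 5.72 counts per 100 CD3 counts in NS, 11.8 in AK and 40.0 in cSCC. Havcr2 had 10.6, 20.1 and 49.5, Tigit 0.813, 2.86 and 27.4, and Pdcd1 0.683, 2.57 and 11.6. Lag3 had 1.11, 1.49 and 0, and its CPM was also lower in cSCC. Each cSCC library gave only 17 to 33 CD3 counts, and single libraries carried much of the ratios of Ctla4, Tigit and Pdcd1 there. Havcr2 was 33.3 to 100 per 100 in the 4 cSCC libraries and 1.76 to 42.2 in NS, so these ranges overlapped. The 22 Tigit counts and 24 Ctla4 counts of cSCC replicate 21 stood beside 24 CD3 counts, and Tigit in the other 3 cSCC libraries was 3.03 to 9.52 per 100. The ratios are given as a description without a test, and a ratio to CD3 is not a level per T cell, since Havcr2 in particular is also a myeloid gene.

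**Figure D4:**
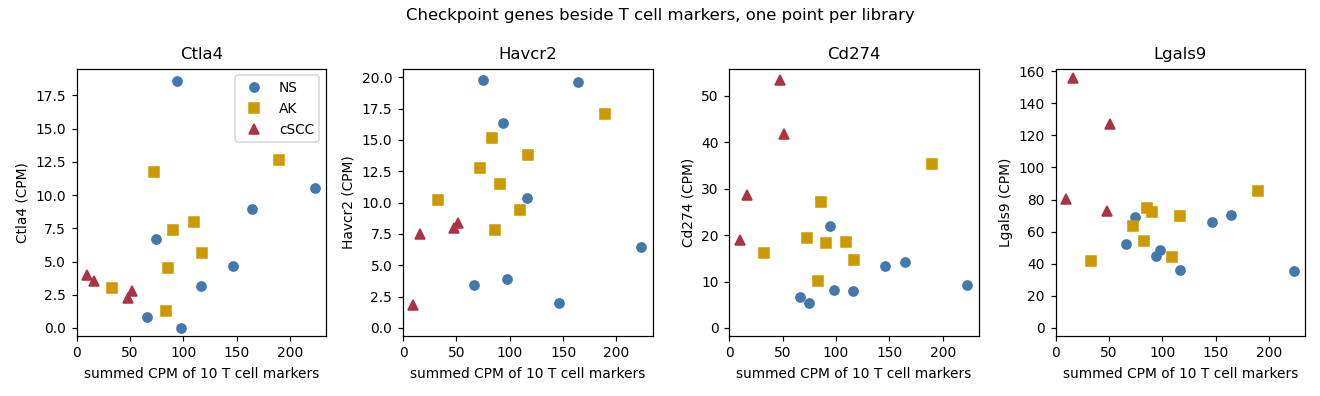
CPM of Ctla4, Havcr2, Cd274 and Lgals9 (vertical axes) against the summed CPM of 10 T cell markers (horizontal axis), 1 point per library. The cSCC libraries, at 9.76 to 51.4 CPM of T cell markers, lie below every NS library and around the lowest AK library at 33.0 CPM, with Ctla4 at 2.28 to 3.97 CPM and with Lgals9 at 72.8 CPM or more.

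Binding partners of the members were compared next, as 20 genes that are ligands or receptors of the 10. Of 11 tested in AK vs. NS, 0 were called, against 4.64% of all genes tested. In cSCC vs. NS, 1 of 11 was called higher and 2 lower, and in cSCC vs. AK 2 of 13 higher and 2 lower. Of all genes tested, 926 of 12097 and 1004 of 12032 were called lower in these 2 comparisons, and 1414 and 1931 higher. The median log2 fold change of the partners tested was −0.25, −0.50 and −0.78 in the 3 comparisons. Pvr, the main ligand of TIGIT, CD96 and CD226, ranged from 2.29 to 7.31 CPM in NS and from 0 to 13.1 CPM in AK, and was 8.34, 29.0, 36.4 and 62.4 CPM in cSCC replicates 18, 19, 20 and 21. All 4 cSCC libraries were above the highest NS library. Pvr was called higher in cSCC vs. NS (log2 fold change 2.84, SE 0.44, adjusted p = 0.00167) with any 1 library left out and without cSCC replicates 20 and 21 together, and in cSCC vs. AK (2.71, SE 0.56, adjusted p = 0.00522) with any 1 left out but not without those 2 libraries.

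No receptor of Pvr was called higher. Cd96 was 2.13 to 18 CPM in NS, 3.78 to 17.5 CPM in AK and 0, 0, 3.41 and 0.992 CPM in cSCC, and was called lower in cSCC vs. NS (−3.37, SE 0.97, adjusted p = 0.0268, lost without cSCC replicate 19 or 21) and in cSCC vs. AK (−3.05, SE 0.82, adjusted p = 0.0160). Cd226 was not called in any comparison (log2 fold change 0.71, −0.14 and −0.80), and Tigit is given above. Nectin2, the second TIGIT ligand (listed as Pvrl2), was called higher in cSCC vs. AK (1.60, SE 0.53, adjusted p = 0.0410), with 6.95, 5.27, 20.5 and 51.1 CPM in cSCC. The call rests on the lung-rich and heart-rich replicates 20 and 21, since without either it was lost, and it was also lost without any 1 of AK replicates 10 to 16. Rgmb, a further partner of PD-L2, was called lower in cSCC vs. NS (−1.5, SE 0.46, adjusted p = 0.0336) and cSCC vs. AK (−1.19, SE 0.40, adjusted p = 0.0405), in 6 of 12 and 4 of 12 fits with 1 library left out and in neither without cSCC replicates 20 and 21.

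The CTLA-4 partners were not called in any comparison in which they were tested. Cd86, the B7 ligand shared by CD28 and CTLA-4, had means of 45.9 ± 15.8, 57.6 ± 19.7 and 31.6 ± 14.4 CPM in NS, AK and cSCC. Cd80, the other B7 ligand, had a median of 0.703 CPM in NS, 0.576 in AK and 4.23 in cSCC and was not tested in the filtered fits. It was 4.17, 19.3, 0 and 4.30 CPM in cSCC replicates 18, 19, 20 and 21. The highest library held 1.57 CPM in NS and 4.34 CPM in AK. Cd28 had means of 2.48 ± 1.60, 7.24 ± 4.58 and 2.66 ± 4.75 CPM, and its log2 fold change in AK vs. NS was 1.48 (SE 0.49, adjusted p = 0.0767). Icos, a costimulatory relative of CD28 and Ctla4, had log2 fold changes of 0.47, −0.98 and −1.43, with adjusted p of 0.452, 0.405 and 0.167.

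Of 24 other inhibitory genes, 16 could be tested in AK vs. NS, with 1 called higher. In cSCC vs. NS 16 could be tested, with 2 called higher, and in cSCC vs. AK 18, with 2 higher and 1 lower. Of all genes tested, 264 of 11677 were called higher in AK vs. NS, 11.7% in cSCC vs. NS and 16% in cSCC vs. AK. The share of the list called higher in the cSCC comparisons was thus close to that of all genes. In cSCC vs. AK, 1004 of 12032 genes were called lower. Entpd1 (CD39) and Nt5e (CD73), ectoenzymes that together turn extracellular ATP into adenosine, were the 2 called higher in both cSCC comparisons. Entpd1 was 34.7, 89.6, 68.3 and 38.2 CPM in cSCC against at most 34.8 CPM in NS and 30.8 CPM in AK. Its log2 fold change was 1.67 (SE 0.42, adjusted p = 0.0148, lost without cSCC replicate 19) vs. NS and 1.69 (SE 0.32, adjusted p = 0.00336, kept in 12 of 12 fits with 1 library left out) vs. AK, where 3.33% of all genes had every cSCC library above every AK library. Nt5e owed its mean to 188 CPM in cSCC replicate 19, beside 25.0, 33.0 and 56.7 CPM in the others, and its calls (adjusted p = 0.0361 and 0.0410) were lost without that library and without several others. Btla, an inhibitory receptor of B and T cells, was called higher in AK vs. NS (1.55, SE 0.43, adjusted p = 0.0435) and lower in cSCC vs. AK (−2.95, SE 0.99, adjusted p = 0.0420), each call kept in only 2 of the fits with 1 library left out, and the second was lost without cSCC replicates 20 and 21. Cd276 (B7-H3) and Vsir (VISTA, listed as 4632428N05Rik) were not called in any comparison. Cd276 had a log2 fold change of 1.10 (SE 0.48, adjusted p = 0.122) in cSCC vs. NS, and Vsir one of 0.31 (SE 0.31, adjusted p = 0.522). Ido2, the relative of Ido1, was at 0 in all NS and cSCC libraries.

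Among 14 costimulatory receptors and ligands, Tnfsf9 (4-1BB ligand) was the only gene called higher. It was 6.95, 30.3, 12.5 and 4.63 CPM in cSCC against at most 5.50 CPM in NS, with log2 fold changes of 2.76 (SE 0.79, adjusted p = 0.0268) vs. NS and 2.34 (SE 0.59, adjusted p = 0.0121) vs. AK, both lost without cSCC replicate 19. The call vs. NS was also lost without NS replicate 5. Cd84, a leukocyte self-ligand, was called lower in cSCC vs. AK (−1.44, SE 0.46, adjusted p = 0.0347), in 5 of 12 fits with 1 library left out and not without cSCC replicates 20 and 21. Of 7, 7 and 8 genes tested, 0, 1 and 2 were called in the 3 comparisons.

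The interferon gamma axis is the pathway best known to induce Cd274 and Ido1. Of its 14 genes tested in AK vs. NS, 5 were called higher and 0 lower, and the median of the list was 0.11 beside −0.04 over all genes. Of all 11677 genes tested there, 264 were called higher and 278 lower. Irf1, a transcription factor induced by interferon, was 23.6 to 48.7 CPM in NS (median 29.5) and 40.8 to 94.9 CPM in AK (median 59.0), so the groups overlapped only at the top of NS. Stat2 (1.14, adjusted p = 0.0190), Irf1 (0.88, adjusted p = 0.0190) and Jak2 (0.77, adjusted p = 0.0215) were kept in 16 of 16 fits with 1 library left out. The chemokines Cxcl9 (2.36, adjusted p = 0.0278) and Cxcl10 (2.26, adjusted p = 0.0445) draw T cells through CXCR3, and Cxcl10 was kept in 3 of the 16. Ifng itself had means of 0.930 ± 0.907 CPM in NS and 4.46 ± 2.60 CPM in AK and did not pass the filter there.

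With all 20 samples in 1 fit, 0 of 15 interferon axis genes were called in AK vs. NS, and of all 12847 genes tested 5 were called higher and 4 lower. The AK calls of the lists thus come from fits of NS and AK alone. DESeq2 and limma voom, fitted on NS and AK, called 5 of 14 genes higher.

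In cSCC vs. NS, 1 of 14 genes of this axis was called higher and 2 lower, and in cSCC vs. AK 1 of 15 higher and 3 lower, with medians of 0.02 and −0.51. Of all genes tested in these comparisons, 926 of 12097 and 1004 of 12032 were called lower. Stat2 fell vs. AK in 12 of 12 fits with 1 library left out (−1.34, SE 0.32, adjusted p = 0.0104). Irf1 was the gene called higher vs. NS (1.26, SE 0.33, adjusted p = 0.0187), at 36.2 to 139 CPM against 23.6 to 48.7 CPM, lost without cSCC replicate 19 and under scaling by total counts. Jak2 was not called in cSCC vs. NS (0.24, adjusted p = 0.705). Il18 and Il12rb2, which encode a cytokine that promotes interferon gamma and a chain of the IL-12 receptor, were called lower in both cSCC comparisons, by 2.76 and 3.80 on the log2 scale vs. NS. Without cSCC replicates 20 and 21, Il12rb2 lost both calls (adjusted p = 0.0550 vs. NS and 0.103 vs. AK), and limma voom made neither. Il18 lost the call vs. AK (adjusted p = 0.0895) and kept that vs. NS (adjusted p = 0.0435). Ifngr2, a chain of the interferon gamma receptor, was called higher vs. AK (2.11, SE 0.56, adjusted p = 0.0156) on account of 317 CPM in cSCC replicate 21, and that call was lost without it.

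Factors linked to T cell exhaustion gave 0 calls of 11 in AK vs. NS, and 1 higher and 1 lower of 10 and of 11 in the cSCC comparisons. Of all genes tested, 4.64% were called in AK vs. NS, 19.3% in cSCC vs. NS and 24.4% in cSCC vs. AK. The gene called lower was Prdm1 (BLIMP-1), at 18.5 to 26.4 CPM in cSCC against 56.8 to 112 CPM in NS and 51.6 to 140 CPM in AK, with log2 fold changes of −1.79 (SE 0.27, adjusted p = 0.00167) and −1.78 (SE 0.28, adjusted p = 0.00219), kept in 12 of 12 fits each with 1 library left out and without cSCC replicates 20 and 21. The ranges of cSCC did not overlap those of NS or AK, and 5.73% and 6.84% of all genes lay wholly lower in this way. Prdm1 is also a gene of differentiating keratinocytes. In cSCC vs. NS, where 926 of all 12097 genes tested were called lower, 10 keratinocyte genes were tested. Of these, 4 genes of differentiating cells (Lor, Flg, Krt10 and Krt1) were called lower and 1 was called higher, the desmosomal cadherin Dsg3 (0.95, adjusted p = 0.0461). Their part in the Prdm1 difference was not tested. The gene called higher was Id3 (0.87, adjusted p = 0.0303 vs. NS; 1.32, adjusted p = 0.00567 vs. AK), a factor expressed in many cell types, whose call vs. NS was kept in 4 of 12 such fits and whose calls were both lost without cSCC replicates 20 and 21 (adjusted p = 0.189 and 0.0512).

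Genes beside the members on the chromosome were read for comparison. Cd274 starts 64 bp from Plgrkt, which runs the other way, and Jak2 lies in the same region of chromosome 19. Plgrkt had log2 fold changes of 0.06, −0.50 and −0.52 in AK vs. NS and in cSCC against NS and against AK and was not called, while Cd274 had 0.90, 1.77 and 0.91. Of 10 neighbours tested, Jak2 was called higher and Ptms lower in AK vs. NS, Ric1 and Ermp1 lower in cSCC vs. NS and Ptms higher in cSCC vs. AK. Over all genes in cSCC vs. NS, 926 of 12097 were called lower. In either direction, 4.64% of all genes were called in AK vs. NS, 19.3% in cSCC vs. NS and 24.4% in cSCC vs. AK. Ric1 and Ermp1 fell (−1.13 and −1.53) in the comparison in which Cd274 rose, with adjusted p of 0.0373 and 0.0311, kept in 4 and 7 of 12 fits with 1 library left out and lost without cSCC replicates 20 and 21. Ptms lies 1975 bp from Lag3 and was called in AK vs. NS (−1.17, SE 0.22, adjusted p = 0.0151), where Lag3 was not.

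The genes whose order across samples was most like a member's were ranked by Spearman's rho among 12847 genes, as a description over samples that share group differences. Over all 20 samples the closest to Cd274 was Tmem140 (rho 0.81), to Lgals9 Slfn2 (0.88), to Ctla4 Pianp (0.81), to Havcr2 Ezr (0.91) and to Ido1 Lin54 (0.82). Over the 16 NS and AK samples alone they were Gm14446 for Cd274 (0.84), Bcl10 for Lgals9 (0.83), Ccl1 for Ctla4 (0.86), Lman2 for Havcr2 (0.89) and Lin54 for Ido1 (0.92). The leading gene was the same over both sets of samples only for Ido1. Among the members, the pairs of highest rho over the 16 samples were Ctla4 with Lag3 (0.66), Havcr2 with Tigit (0.65) and Tigit with Ido1 (0.64), and Cd274 with Lgals9 gave 0.39.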

How the data were processed

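The deposited table held raw read counts per gene symbol for 20 libraries, made by the authors and not normalized. The study names Trimmomatic, HISAT2, StringTie and the build GRCm38, and the submitters' processing notes name Trimmomatic 0.36, HISAT2 2.0.5 and featureCounts 1.5.2 beside other builds, so the counter, build and strand setting are not certain. The notes give daily irradiation, the methods several times a week.

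Each pair of groups was fitted with edgeR 4.0.16 (R 4.3.3, TMM, filterByExpr, quasi-likelihood F test, Benjamini-Hochberg over all genes). Genes failing the filter were fitted again without it. Fold changes have SEs from this fit. Alternatives were DESeq2 1.42.0, limma 3.58.1 voom with quality weights, other scalings, filters and thresholds, a fit of all 20 samples, and libraries left out. The removal of haemoglobin genes, the repeat of the fit without the gene filter under every other setting, and the bounds and list calls without cSCC libraries were chosen after seeing the data. The 62 pairs of libraries within groups all differed by more than sampling noise (chi-square per degree of freedom at least 11.3). Scripts were tested on simulated data.

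The members and gene lists were chosen with earlier results of these data known. Every member is named; of list genes, those called and a preset few are named, up to 6 for each list and comparison, and the 3 genes most like a member were ranked, of which the first is given. Nectin2 and Vsir were matched by older symbols. A gene of the interferon list is not reported here and is in none of its counts. Gene positions and exon lengths are from GENCODE M21.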

Additional observations from a re-analysis of the deposited data

Results flagged for a closer look

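Havcr2 in cSCC replicate 21 was 1.82 CPM, far from the 7.47, 7.96 and 8.34 CPM of the other 3 cSCC libraries by Dixon's test. It is the library rich in heart genes. In all, 28 sets of a member in a group were tested and 1 exceeded the limit, and chance alone exceeds it in about 1 of 20. Without this library the log2 fold change of Havcr2 was −0.32 (adjusted p = 0.797) in cSCC vs. NS and −0.61 (adjusted p = 0.303) in cSCC vs. AK.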

How the results depend on the processing

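Among members kept by the gene filter, the number called in AK vs. NS was 0 as reported and 1 (Cd274) at an unadjusted p, with DESeq2 and with limma voom. In cSCC vs. NS it was 2 as reported and 1 under scaling by total counts. In cSCC vs. AK it was 1 as reported, 2 at an unadjusted p and with DESeq2, and 0 under scaling by total counts and with limma voom. With 1 library left out the counts ran from 0 to 1 in AK vs. NS, from 1 to 2 in cSCC vs. NS and from 0 to 2 in cSCC vs. AK. The removal of haemoglobin genes, chosen after seeing the data, gave 0, 2 and 1 under either scaling. Among the 6 members outside the filter in AK vs. NS, 0 were called as reported, 2 (Vtcn1 and Ido1) at an unadjusted p and with DESeq2, and 2 (Pdcd1 and Ido1) with limma voom. The cSCC vs. NS count outside the filter was 1 of 6 (Lag3) as reported, 2 (with Vtcn1) at an unadjusted p, with DESeq2, under scaling by total counts and with all 20 samples in 1 fit, and 0 with limma voom, without libraries under 1000000 counts or without cSCC replicates 20 and 21. In cSCC vs. AK, 1 of 5 (Lag3) was called as reported and 0 with DESeq2, limma voom or without cSCC replicates 20 and 21.

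Several log2 fold changes of members with few counts or wide spread changed sign, none past the threshold. With limma voom they were 0.42 for Ctla4 in cSCC vs. NS, and 0.50 for Vtcn1 and 0.051 for Pdcd1 in cSCC vs. AK. Without cSCC replicates 20 and 21 they were −0.35 for Tigit in cSCC vs. NS and 0.16 for Pdcd1 in cSCC vs. AK. Without libraries under 1000000 counts Pdcd1lg2 in cSCC vs. AK was −0.16. Tigit in cSCC vs. AK was 0.041 with upper quartile factors, 0.24 with DESeq2, 0.049 with all 20 samples in 1 fit and 0.14 without haemoglobin genes. With 1 library left out, the range crossed 0 for Ctla4 (−0.086 to 0.50) and Lag3 (−0.83 to 0.20) in AK vs. NS, and for Pdcd1lg2 (−0.11 to 1.02), Pdcd1 (−1.47 to 0.13) and Tigit (−0.82 to 0.44) in cSCC vs. AK. The causes were not tested. Over all members and settings, 660 values kept their direction and side of the threshold, 36 lost it, 22 gained it and 27 changed sign.

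No paired analysis was possible because the groups share no replicate numbers in the labels. Depth limits Pdcd1lg2, Vtcn1, Pdcd1, Lag3, Tigit and Ido1, each with at most 190 counts over 20 libraries.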
